A study of Mus musculus with 15 samples.

Results

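This account concerns 3153 promoters of protein-coding transcripts that are expressed in both dendritic cells (DCs) and fibroblasts but have little H3K4me1 ChIP-MNase coverage, out of 25881 annotated transcription start sites (TSSs) in the data. They were chosen from the authors' promoter annotation by a coverage score of at most 100 together with expression before stimulation above 0.05 FPKM in DCs and above 1.6 FPKM in fibroblasts. They are referred to below as low-coverage expressed promoters, and they make up 37.5% of the 8416 coding promoters that pass the same expression limits. The remaining 5263 have a higher score (high-coverage expressed promoters), and 3884 coding promoters have a score of at most 100 with an expression of 0 in both cell-types (silent low-coverage promoters). Because coverage and expression chose the promoters, both are given as a description only, divisions by them included, and all tests concern the nucleosome profile, which the authors normalised to the surrounding 1 kb.

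ChIP-MNase recovers large chromatin pieces with an antibody and then digests them with micrococcal nuclease, so that the sequenced fragments mark nucleosomes on alleles that carry the antibody's target. Of 15 libraries, 4 are H3K4me1 sets in which the authors pooled 2 replicates: DCs without stimulation, DCs after LPS (100 ng/ml, 1 h), 3T3 fibroblasts without stimulation and 3T3 fibroblasts after TNF-α (5 ng/ml, 1 h). A further 8 are single H3K4me1 libraries of 3T3 fibroblasts, with 2 replicates each of control and BAF-knockdown cells, in either case without stimulation and after TNF-α for 1 h. The last 3 come from TNF-α-stimulated fibroblasts without knockdown and use antibodies against RNA polymerase II phosphorylated at serine 7 (pol-II S7P, 2 replicates) or at serine 5 (pol-II S5P, 1 library) of its C-terminal domain. DCs were differentiated in vitro from cultured bone marrow progenitors, 3T3 is an immortalised mouse line, and the knockdown used 1 shRNA against a sequence shared by Brg1 and Brm, the ATPases of the BAF nucleosome remodelling complex. The study measured lower mRNA levels of both genes in the knockdown cells by quantitative RT-PCR. Expression after the knockdown was not analysed here. The study calls the replicates biological, but neither it nor the labels say whether they are separate cultures, so p-values measure the spread between these libraries. The study also lists replicates for pol-II S5P, and whether its single file merges them is not given in the sources used here.

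Nucleosomes at active promoters follow a common arrangement. A nucleosome-depleted region (NDR) lies just upstream of the TSS, the first or +1 nucleosome sits at a fixed distance downstream, and further nucleosomes are phased behind it. H3K4me1 flanks many active promoters and enhancers, whereas strongly transcribed promoters carry H3K4me3 around the TSS instead, and CpG islands, stretches rich in CG dinucleotides, mark the promoters of most widely expressed genes.

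The promoters of 4 members are shown because they span what the set holds: 2 very highly expressed genes with an NDR in all 8 single libraries, 1 CpG-rich promoter whose NDR is among the emptiest of the named members, and 1 X-linked promoter with high expression but no depletion in these libraries on average. They were chosen after their values were seen. Sequences are from the mm9 build, read 5′ to 3′ on the strand of the gene over the 250 bases upstream of the TSS. Capitals mark matches to the TATA box (TATAAA, lying wholly between -50 and -15 bp), the CCAAT box (CCAAT) and the GC box (GGGCGG). They also mark the ETS motif (CCGGAAG) and the core of the NRF1 motif (GCATGCGC). Each was searched on both strands, and adjoining or overlapping matches run together. Vim encodes the intermediate filament protein vimentin (chr2:13495689-13495938, plus strand), Eef1a1 a translation elongation factor (chr9:78329532-78329781, minus strand), Ube2e3 a ubiquitin-conjugating enzyme (chr2:78708955-78709204, plus strand) and Tmsb4x the actin-binding peptide thymosin β4 (chrX:163647151-163647400, minus strand).
Vim: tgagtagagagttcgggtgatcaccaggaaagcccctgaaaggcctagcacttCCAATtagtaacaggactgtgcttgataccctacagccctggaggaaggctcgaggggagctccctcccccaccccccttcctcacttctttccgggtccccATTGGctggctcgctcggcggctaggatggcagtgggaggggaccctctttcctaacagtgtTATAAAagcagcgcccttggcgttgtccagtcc
Eef1a1: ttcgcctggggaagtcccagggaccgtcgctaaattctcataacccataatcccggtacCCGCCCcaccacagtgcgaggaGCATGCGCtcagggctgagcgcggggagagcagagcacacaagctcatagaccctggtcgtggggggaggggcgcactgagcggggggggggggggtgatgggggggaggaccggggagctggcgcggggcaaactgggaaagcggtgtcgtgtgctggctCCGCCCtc
Ube2e3: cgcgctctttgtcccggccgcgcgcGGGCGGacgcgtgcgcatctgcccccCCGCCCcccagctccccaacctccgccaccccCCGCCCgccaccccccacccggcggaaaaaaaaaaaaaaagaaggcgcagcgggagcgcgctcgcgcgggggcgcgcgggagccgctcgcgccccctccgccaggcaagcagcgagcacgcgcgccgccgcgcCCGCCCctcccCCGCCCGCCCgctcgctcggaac
Tmsb4x: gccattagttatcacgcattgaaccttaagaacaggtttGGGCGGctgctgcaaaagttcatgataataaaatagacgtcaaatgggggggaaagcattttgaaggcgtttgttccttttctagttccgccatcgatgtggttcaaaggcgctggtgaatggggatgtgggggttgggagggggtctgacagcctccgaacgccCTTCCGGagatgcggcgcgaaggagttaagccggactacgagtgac

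Motif shares were calculated from 250 bases upstream to 50 bases downstream of the TSS. Vim has a TATA box with its first base at -33 bp, whereas only 35 (1.11%, 95% Wilson interval 0.799 to 1.54%) of the 3153 low-coverage expressed promoters have one. Among all promoters with sequence the share was 3.27%, and among silent low-coverage promoters it was 7.67%. A GC box was present at 2293 (72.7%) low-coverage expressed promoters, 67.8% of high-coverage expressed promoters, 12.0% of silent low-coverage promoters and 45.3% of all promoters. The ETS motif was found at 19.6% of them against 24.5% of high-coverage expressed promoters and 11.05% of all, the NRF1 core at 6.47% against 5.95% and 3.29%, and the CCAAT box at 37.5% against 38.5% and 37.8%. Wilson intervals here and below cover counting error only, and a match is a description of the sequence.

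CpG islands were the rule at these promoters. Over the 401 bp centred on the TSS, 2787 of 3153 (88.4%, 95% Wilson interval 87.2 to 89.5%) had over 50% G and C and more than 0.6 times the CG dinucleotides that their base composition predicts, and were taken as CpG islands, compared with 82.2% (81.2 to 83.2%) of high-coverage expressed promoters, 7.99% of silent low-coverage promoters and 48.3% of all. The median GC content was 66.8% at low-coverage and 63.8% at high-coverage expressed promoters. Vim is one of the 366 without an island, since its GC content of 61.1% passes but its CpG ratio of 0.559 does not, and Anxa1, encoding the phospholipid-binding protein annexin A1, has a GC content of 45.1%.

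The values that chose the promoters are as follows. Coverage scores ran from 0 to 100 with a median of 74.5, against a median of 183 at high-coverage expressed promoters. Per the study's methods the score counts fragments within 1000 bp of the TSS in the non-stimulated DC and fibroblast sets, and it is given in steps of 0.25. The 8 single libraries are separate from those pooled sets. Median expression in fibroblasts was 13.2 FPKM at low-coverage and 9.76 FPKM at high-coverage expressed promoters, and in DCs 1.39 and 1.18 FPKM. The scales of the cell-types differ, so that FPKM is compared within a cell-type only; the limits 0.05 and 1.6 lie beside 0.0507 and 1.596, 0.02 times the mean of all promoters in each. Divided into 5 equal groups by fibroblast expression, from the lowest to the highest, 27.8, 33.2, 40.4, 42.7 and 43.2% of the expressed coding promoters were low-coverage ones.

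The 8 members with the highest expression in both cell-types, ranked by the lower of their expression percentiles, included genes of the cytoskeleton, translation and protein folding. Actb, encoding β-actin, had 355 FPKM in DCs and 730 in fibroblasts at a score of 63. Vim had 59.4 FPKM in DCs and 1325 in fibroblasts at a score of 30, and Tmsb4x had 296 and 667 FPKM at a score of 38.5. Eef1a1 had 70.4 and 280 FPKM at a score of 52. The other four were Sem1, a small proteasome subunit, Hsp90ab1, a cytosolic chaperone, Anxa1, and Atp5g3, which encodes a subunit of the ATP synthase, with scores of 61.5 to 90.25. Actb, Eef1a1 and Tmsb4x have near-identical processed copies elsewhere in the genome, and their FPKM is uncertain to the extent that reads were shared with these.

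The DC limit admitted genes that are barely expressed there. Of the 3153, 101 were below 0.1 FPKM in DCs and 634 below 0.5 FPKM. Collagen genes are the clearest case: Col1a2 had 0.116 FPKM in DCs and 865 in fibroblasts, and Col3a1 had 0.0504 and 147 FPKM. Both were fixed as fibroblast markers, and 5 fibroblast markers had 0.0144 to 0.116 FPKM in DCs and 2.09 to 865 in fibroblasts, whereas 5 DC markers had 0.770 to 133 FPKM in DCs and 0.0285 to 1.88 in fibroblasts.

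Just inside the limit of 100, with scores above 99, the 3 promoters with the highest fibroblast expression were Sh3bgrl3 (score 100, 148 FPKM in fibroblasts), Atp5j (99.5, 141 FPKM) and Lrrc17 (100, 67.4 FPKM). Just outside it, with scores up to 101, they included Col1a1 (100.5, 556 FPKM) and Washc2 (101, 50.5 FPKM). Members and promoters above the limit include genes of the same kind. Col1a2, a member with a score of 55.5, and Col1a1 encode the chains of type I collagen.

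Low-coverage expressed promoters had an NDR and a +1 peak, as did high-coverage expressed promoters. Silent low-coverage promoters, which pass the same score limit but with a lower median score of 30, had no trough. Occupancy was deposited in 10 bp bins, relative to the surrounding 1 kb, and an empty bin was read as 0. The mean profile of the 3153 promoters was lowest at -25 bp in non-stimulated DCs (occupancy 0.818) and at -35 bp in non-stimulated fibroblasts (0.658). It peaked 125 bp downstream of the TSS in DCs (2.41) and 135 bp downstream in fibroblasts (2.67). In pol-II S5P the lowest point was 0.308 at -55 bp and the peak 2.31 at 135 bp.

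**Figure D1:**
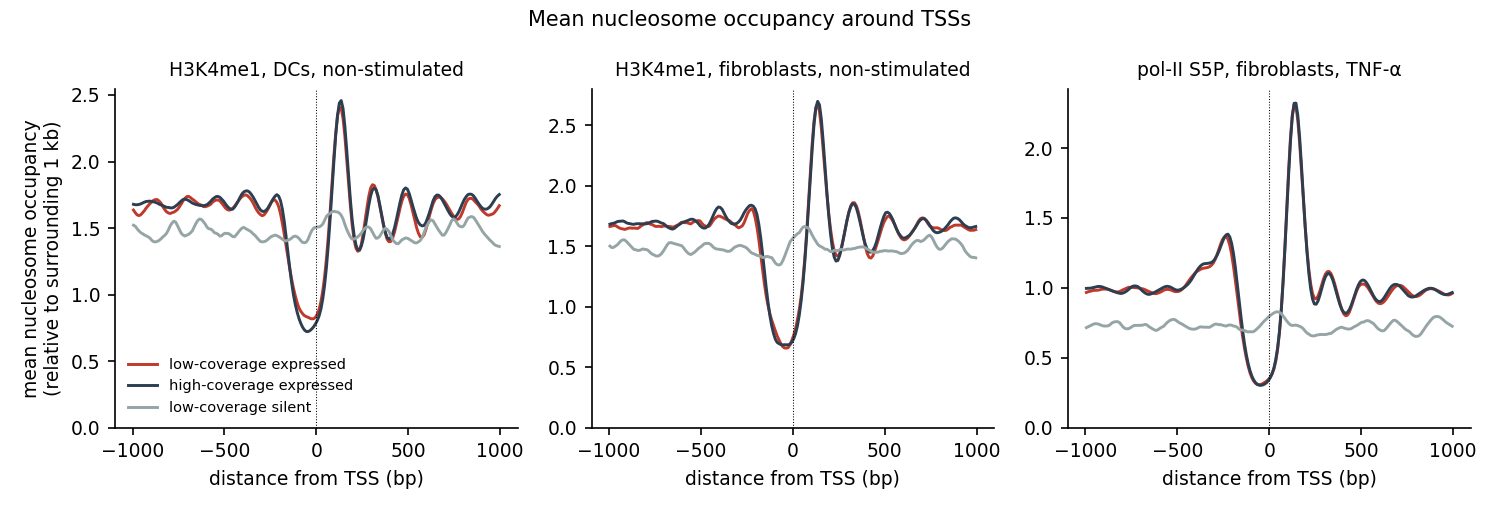
Mean nucleosome occupancy (y axis, relative to the surrounding 1 kb) against distance from the TSS in bp (x axis) for 3153 low-coverage expressed, 5263 high-coverage expressed and 3884 silent low-coverage promoters, in the pooled non-stimulated H3K4me1 sets of DCs and fibroblasts and in the pol-II S5P library. The curves of both expressed sets nearly coincide, with a trough upstream of the TSS and a peak 125 to 145 bp downstream, while the curve of the silent set has no trough.

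The depth of the NDR was measured as the NDR ratio, which sets the average occupancy between -150 and 0 bp against the average in the flank, between -1000 and -500 bp. At low-coverage expressed promoters the NDR ratio was 0.548 in non-stimulated and 0.501 in LPS-stimulated DCs, and 0.471 in non-stimulated and 0.423 in TNF-α-treated pooled fibroblasts. In the 8 single H3K4me1 libraries it ran from 0.498 to 0.707 with a median of 0.612. It was 0.756 and 0.701 in pol-II S7P and 0.394 in pol-II S5P, so that the S5P library had the deepest mean NDR of the 15. Silent low-coverage promoters had ratios of 0.956 to 1.01 in all 15 libraries, and none overlapped with those of the expressed sets.

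Over the 8 single libraries the NDR ratio was 0.5999 at low-coverage expressed and 0.989 at silent low-coverage promoters, a difference of -0.389 ± 0.0811 (SD, n = 8) that was negative in 8 of 8 libraries (two-sided exact sign-flip permutation test over libraries, p = 0.00781, the smallest this test can give, 0.01875 after Benjamini-Hochberg adjustment over 12 tests). High-coverage expressed promoters had a ratio of 0.577. Low-coverage expressed promoters were higher by 0.0232 ± 0.0106 (SD, n = 8), again in 8 of 8 libraries (exact sign-flip permutation test, p = 0.00781, adjusted 0.01875), a difference much smaller than the range between libraries. That small difference depended on how depletion was summarised: as the median over promoters of NDR minus flank occupancy it was -0.0181, of the opposite sign (exact sign-flip permutation test, p = 0.109).

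**Figure D2:**
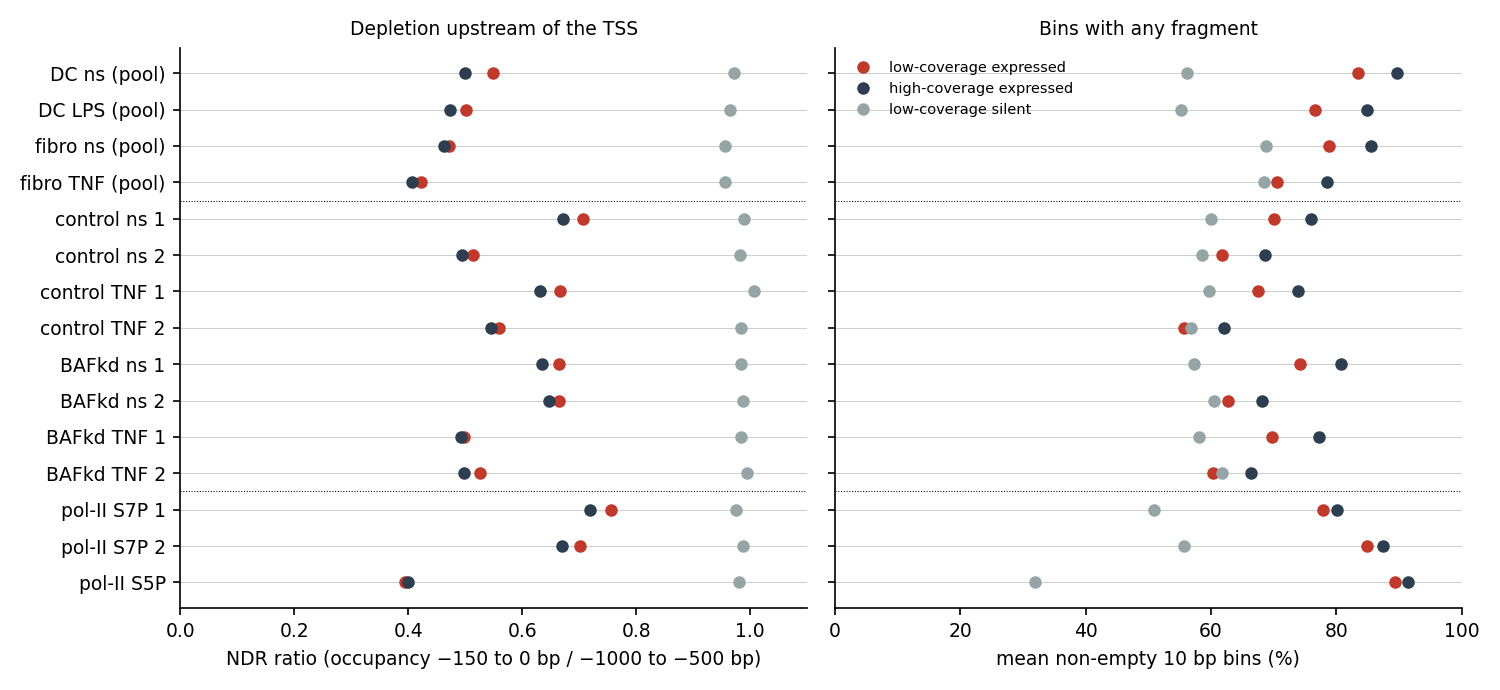
NDR ratio (left, x axis) and mean percentage of 10 bp bins holding any fragment (right, x axis) of low-coverage expressed, high-coverage expressed and silent low-coverage promoters in each of 15 libraries (y axis), with dotted lines between the pooled H3K4me1 sets, the single H3K4me1 libraries and the pol-II libraries. Both expressed sets lie between 0.394 and 0.756 in NDR ratio in every library and the silent set near 1, whereas filled bins separate the expressed sets less in pol-II than in H3K4me1 libraries.

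Patterning levels gave the same order. Each bin of a promoter, as its deviation from the promoter's own mean, was multiplied by a template and the products were added to give the patterning level. For fibroblast libraries the template was the centred mean profile of active high-coverage promoters in fibroblasts before stimulation. For DC libraries it was the same profile of promoters active in DCs before stimulation. The level is positive where a promoter resembles the template. No low-coverage promoter entered either template. High-coverage expressed promoters entered the fibroblast template, which favours their levels in advance. The test against them therefore cannot decide whether low-coverage expressed promoters are less patterned. The median level of low-coverage expressed promoters was 2.81 to 4.96 in the 8 single libraries, against 0 for silent low-coverage promoters in each, of which 492 to 528 held no fragment at all. The difference averaged 3.96 ± 0.808 (SD, n = 8; exact sign-flip permutation test, p = 0.00781, adjusted 0.01875). High-coverage expressed promoters were higher, and the low-coverage ones differed from them by -0.375 ± 0.189 (SD, n = 8; lower in 8 of 8 libraries, exact sign-flip permutation test, p = 0.00781, adjusted 0.01875).

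Depletion was also seen promoter by promoter. In at least 7 of the 8 single libraries 1485 of the 3153 low-coverage expressed promoters (47.1%) had less occupancy in the NDR than in the flank, beside a background of 29.7% for all 25881 promoters, 53.4% for high-coverage expressed and 11.8% for silent low-coverage promoters. At the other end, 131 (4.15%) were below the flank in at most 2 of 8 libraries, against 3.65% of high-coverage expressed and 30.0% of silent low-coverage promoters. A promoter without a fragment in a library counts as not below the flank in it. Per library, 492 to 528 silent promoters held none, and 565 were below the flank in 0 of 8, so the 30.0% includes promoters without data. Per library, the share of low-coverage expressed promoters with less occupancy in the NDR was 71.1 to 81.1% in the single H3K4me1 libraries, 69.7 and 74.98% in pol-II S7P and 87.8% in pol-II S5P.

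**Figure D3:**
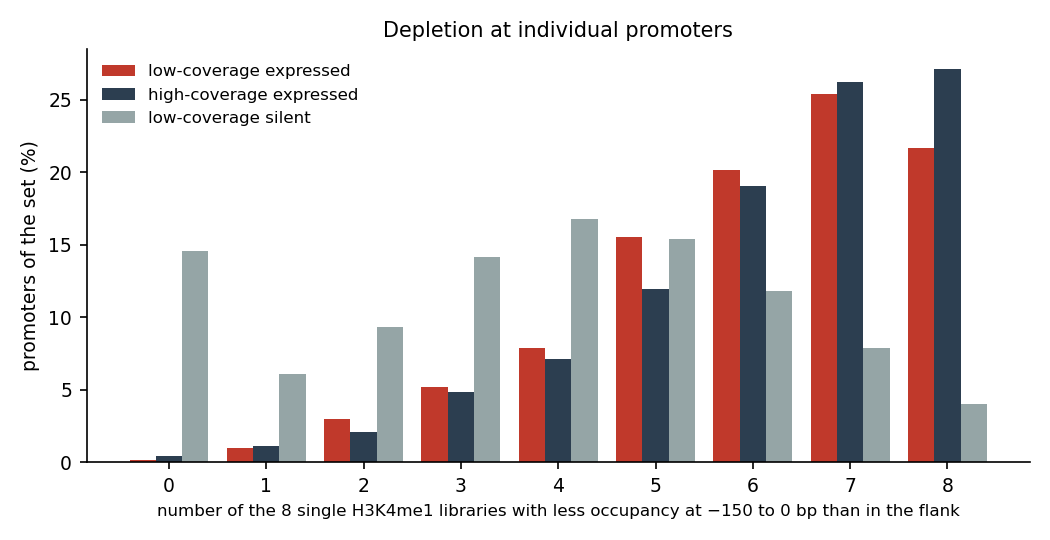
Percentage of the promoters of each set (y axis) by the number of the 8 single H3K4me1 libraries in which occupancy was lower at -150 to 0 bp than in the flank (x axis). The bars of both expressed sets rise towards 7 and 8 libraries, where 47.1% of low-coverage and 53.4% of high-coverage expressed promoters lie, and those of the silent set are highest at 4. A promoter without any fragment in a library counts as not lower in it.

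Single promoters were measured with a large error. Between the replicate libraries of a condition, patterning levels correlated across low-coverage expressed promoters with a Spearman's rho of 0.156 to 0.244 in the 4 H3K4me1 conditions and of 0.378 in pol-II S7P, against 0.223 to 0.340 and 0.430 at high-coverage expressed promoters. These correlations run across genes, which are not independent replicates.

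Actb shows the spread at a single promoter. Its patterning level was 1.13 to 17.7 in the 8 single libraries with a median of 14.7, and it was above 0 in 8 of 8. In the pooled sets it was 15.6 and -1.79 in DCs without and with LPS and 13.2 and -7.61 in fibroblasts without and with TNF-α, and in pol-II it was 3.33 and 5.99 (S7P) and 16.2 (S5P). Both pooled stimulated sets thus had negative levels, and in them 56.5 and 50% of Actb's bins held any fragment. Levels of pooled and single libraries are not on 1 scale. The mean occupancy of members was 1.59 in pooled TNF-α-treated fibroblasts and 0.812 in the first control TNF-α library. Mean occupancy over the 8 libraries was 0.241 in the NDR and 1.05 in the flank.

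Vim and Eef1a1, whose promoters are shown above, were also depleted in 8 of 8 single libraries. Vim had a mean occupancy of 0.214 in the NDR and 0.851 in the flank, and patterning levels of 3.30 to 17.6 with a median of 7.14. Eef1a1 had 0.00847 in the NDR and 1.06 in the flank, and patterning levels of -1.07 to 23.9 with a median of 5.09. Only 42.5 to 59.5% of its bins were filled in these libraries, so its NDR value is near the floor. It was below the flank in 14 of 15 libraries, yet its pooled patterning was 5.09 and 2.08 in DCs without and with LPS and -9.49 and -0.756 in fibroblasts without and with TNF-α. At Ube2e3, with GC boxes at 6 positions of the printed stretch, the NDR held 0.0469 and the flank 1.03, and it was depleted in all 15 libraries.

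Tmsb4x differed from these. Its mean occupancy in the single libraries was 1.31 in the NDR and 1.03 in the flank. It was below the flank in 4 of 8 single libraries but in 10 of all 15. Its patterning levels in the single libraries ran from -18.0 to 9.94 with a median of -1.33. In the pooled sets they were 9.96 and -9.33 in DCs without and with LPS, and -2.09 and 0.868 in fibroblasts without and with TNF-α. In pol-II its patterning was 3.37 and 4.41 (S7P) and 0.648 (S5P).

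Among members with at least 50% non-empty bins on average, the 5 with the highest mean patterning with every library scaled by its own mean occupancy were Actr5, Fbxo28, Naa25, Ipo11 and Csnk1g3, all at CpG islands. Actr5, a subunit of the INO80 remodelling complex, had levels of 10.5 to 27.4 (median 19.5), and Ipo11, a nuclear import receptor, 10.0 to 34.9 (median 15.1), both above 0 in 8 of 8 libraries. Naa25, an auxiliary subunit of an N-terminal acetyltransferase, was depleted in all 15 libraries with a mean occupancy of 0.0498 in the NDR. These genes are not highly expressed, with 2.63 FPKM for Actr5, 11.6 FPKM for Ipo11 and 10.7 FPKM for Naa25 in fibroblasts.

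The 5 with the lowest mean patterning were Rbpj, Trio, Ckap5, Fndc3b and H2bc4. At Ckap5, a microtubule-binding protein, levels were below 0 in all 8 libraries (-17.6 to -2.33, median -7.96) and the NDR exceeded the flank (1.32 and 0.542). The 401 bp around this start had a GC content of 32.2% and no CG dinucleotide. At Rbpj, the transcription factor of Notch signalling, levels ran from -24.9 to 22.0 (median -10.4), and H2bc4, a gene of the large histone cluster, had 2.07 in the NDR and 0.914 in the flank. In the other libraries only Ckap5 stayed below 0 throughout. Trio and Fndc3b were above 0 in all pooled sets and pol-II S5P, but not in the second S7P replicate. Rbpj and H2bc4 were 25.8 and 20.8 in pooled non-stimulated fibroblasts, -13.5 and 4.06 after TNF-α, and below 0 in DCs and pol-II. Expression is given per gene, so a listed start need not be the one in use.

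To follow this point, members were divided by whether the same gene has another start with a score above 100 more than 1000 bp away. Only 56 of 3153 (1.78%) had one, against 5.91% of high-coverage expressed promoters. Their NDR ratio was 0.721, and that of the 3097 without was 0.598, a difference of -0.124 ± 0.129 (SD, n = 8; lower without another start in 7 of 8 libraries, exact sign-flip permutation test, p = 0.0156, adjusted 0.0268). The call was lost among promoters with a score of at most 50 (-0.0205, exact sign-flip permutation test, p = 0.773). Most members, 91.5%, lay within 50 bp of a transcript start of the reference annotation, as did 91.2% of high-coverage expressed promoters.

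Within the set, NDR depth went with CpG islands. These divisions were made after values were seen. The NDR ratio was 0.580 at the 2787 promoters with and 0.756 at the 366 without a CpG island (difference -0.176 ± 0.0502, SD, n = 8; lower in 8 of 8 libraries, exact sign-flip permutation test, p = 0.00781, adjusted 0.01875). By the values that chose the members, the ratio is given as a description with no test. It was 0.657 at the 448 promoters with a score of at most 50 and 0.574 at the 1520 with a score above 75 (difference 0.0832 ± 0.0403, SD, n = 8; higher in 8 of 8 libraries). At the 789 members with the lowest and the 789 with the highest fibroblast expression the ratios were 0.604 and 0.593 (difference 0.0103 ± 0.0252, SD, n = 8; higher at the lowest expression in 6 of 8 libraries), less than the spread between libraries.

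**Figure D4:**
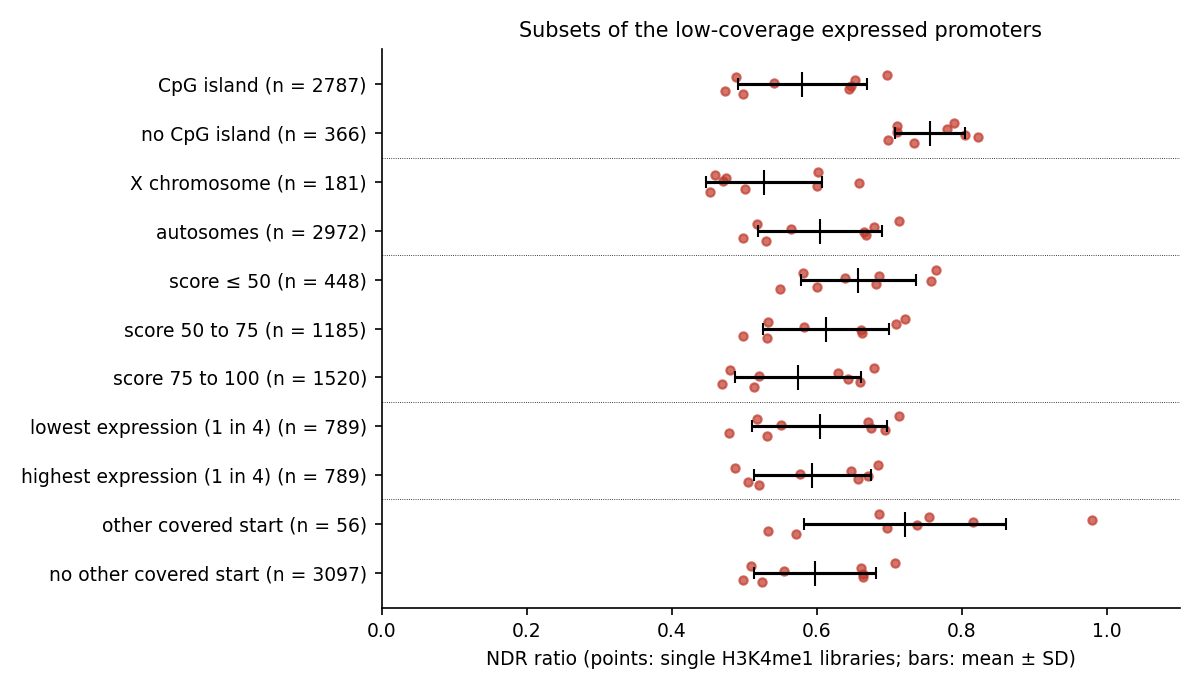
NDR ratio (x axis) of subsets of the low-coverage expressed promoters (y axis, with their number), where each point is 1 of the 8 single H3K4me1 libraries and the black bars give the mean ± SD over them. Promoters without a CpG island have the highest mean of these subsets (0.756), followed by the 56 with another covered start (0.721), and the groups of lowest and highest expression overlap.

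The X chromosome was the chromosome with the largest share of low-coverage promoters. Of 246 expressed coding promoters on the X, 181 (73.6%) had a score of at most 100, compared with 36.4% of 8170 on autosomes, where the share ran from 24.8 to 48.8% over 19 chromosomes. The median score of the 181 was 47, against 75.25 for the 2972 autosomal members, while their median fibroblast expression was 12.9 and 13.2 FPKM. As these shares follow from the score, they describe how the rule fell across the genome.

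In the single fibroblast libraries, members on the X had deeper NDRs than those on autosomes, with ratios of 0.527 and 0.604 (difference -0.0769 ± 0.0646, SD, n = 8; lower in 7 of 8 libraries, exact sign-flip permutation test, p = 0.0156, adjusted 0.0268). The call was lost when promoters with under 50% non-empty bins in a library were left out (-0.0414, exact sign-flip permutation test, p = 0.391). In pol-II the X was also lower, with 0.689 and 0.611 against 0.760 and 0.706 (S7P) and 0.338 against 0.397 (S5P). In pooled fibroblasts the X was higher without stimulation, with 0.522 against 0.468 on autosomes, and lower after TNF-α, with 0.410 against 0.423. In both pooled DC sets the X was higher, with 0.710 and 0.670 on the X and 0.538 and 0.491 on autosomes without and with LPS, and no test was possible in the pooled sets. Non-empty bins on the X were 78.0 and 72.2% in DCs, and 63.9 and 54.7% in pooled fibroblasts. In the single libraries they were 38.2 to 58.6% on the X and 56.8 to 75.2% on autosomes, and the part of this lower coverage in the NDR ratio was not tested. High-coverage expressed promoters on the X, of which there are 65, had ratios of 0.660 and 0.628 in DCs, and in the single libraries differed from autosomal ones by -0.0152 ± 0.0730 (SD, n = 8; lower in 4 of 8 libraries, exact sign-flip permutation test, p = 0.570, adjusted 0.6).

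Low-coverage expressed promoters stand alone in the genome more often than high-coverage ones. Another annotated start lay within 1000 bp of 116 of 3153 (3.68%, 95% Wilson interval 3.08 to 4.39%) low-coverage and of 35.6% (34.4 to 36.9%) of high-coverage expressed promoters, beside 20.2% of all promoters. The low share was not particular to expressed promoters, as it was 5.97% (5.27 to 6.76%) at silent low-coverage promoters. A divergent start, on the other strand, was found within the same distance of 87 (2.76%) against 24.8% of high-coverage expressed, 0.772% of silent low-coverage and 9.15% of all promoters. The score itself varied with neighbouring starts: expressed promoters with 0, 1 and at least 2 other starts within 1000 bp had median scores of 103.75, 194.5 and 288.375, and 47.3, 6.48 and 0.862% of them had a score of at most 100.

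The score and the share of filled bins did not rank these promoters alike. In the pooled non-stimulated sets, isolated promoters with a score above 75 and up to 100, all of them members, had 86.1% non-empty bins. High-coverage expressed promoters with a score above 100 and up to 150 had 88.8% where isolated and 78.0% where 1 other start lay within 1000 bp, so that many promoters counted as low-coverage had more bins filled than some with a higher score. How the authors attributed fragments to neighbouring starts is not given in the sources used here. When both sets were restricted to promoters without another start within 1000 bp, the NDR ratio of low-coverage expressed promoters still exceeded that of high-coverage ones, by 0.0249 (exact sign-flip permutation test over 8 libraries, p = 0.0156).

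**Figure D5:**
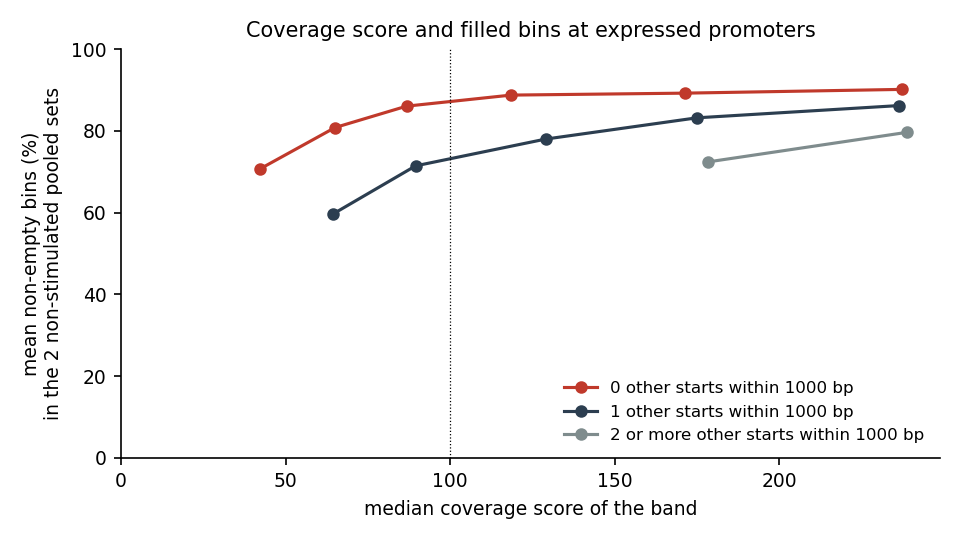
Mean percentage of non-empty bins in the 2 non-stimulated pooled H3K4me1 sets (y axis) against the median coverage score (x axis) of bands of expressed coding promoters, drawn separately for 0, 1 and at least 2 other annotated starts within 1000 bp, with a dotted line at the score limit of 100. At a similar score, promoters with neighbouring starts had fewer filled bins than isolated ones.

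Pol-II libraries covered the low-coverage expressed promoters nearly as well as the high-coverage ones. In H3K4me1 libraries of TNF-α-stimulated fibroblasts, members had 55.7 to 69.7% non-empty bins in the 4 single libraries, which was 0.898 to 0.915 times the percentage at high-coverage expressed promoters. In pol-II S7P, members had 77.8 and 84.8% (0.972 and 0.970 times) and in pol-II S5P 89.4% (0.978 times). The ratios of the antibodies did not overlap, with a difference of 0.0673. Since H3K4me1 coverage chose the members, no test is given. Pooled H3K4me1 sets with 70.5 to 83.4% filled bins had ratios of 0.898 to 0.930. Silent low-coverage promoters had 31.9% filled bins in pol-II S5P. Pol-II libraries were sequenced paired-end and H3K4me1 libraries single-end, so the antibody and the type of sequencing cannot be told apart, and as mean occupancy, which the local normalisation evens out, the difference was 0.00657.

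The members that gained most in pol-II S5P over pooled TNF-α-stimulated fibroblasts included Stag2, Ptp4a1, Zswim6 and Zbtb1. At Stag2, an X-linked cohesin subunit, 13% of bins were filled in the pooled H3K4me1 set and 20 to 50.5% in the single ones, against 64.5 and 91.5% in pol-II S7P and 95% in pol-II S5P. At Actb, where H3K4me1 filled 50% of bins in the pooled stimulated set and 59.5 to 84.5% in single libraries, all 3 pol-II libraries filled 99.5 to 100% of them.

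No change in the mean NDR of these promoters beyond the spread between libraries was detected upon knockdown of BAF or upon TNF-α. The NDR ratio was 0.612 in 4 control and 0.588 in 4 BAF-knockdown libraries (difference -0.0236, two-sided exact permutation test, p = 0.6, adjusted 0.6, the smallest possible being 0.0286). It was 0.637 in 4 non-stimulated and 0.562 in 4 TNF-α libraries (difference -0.0749, exact permutation test, p = 0.314, adjusted 0.471). By replicate, the change upon TNF-α was -0.0400 and 0.0455 in control cells and -0.167 and -0.139 in knockdown cells. Relative to high-coverage expressed promoters of the same library, the effects were -0.00555 for the knockdown and -0.00459 for TNF-α (exact permutation tests, p = 0.457 and 0.543).

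No individual promoter was called either. In limma fits of patterning across 24867 promoters with fragments in every single library, 3149 of them members, 0 were called at an adjusted p under 0.05 for knockdown, TNF-α or their interaction (0% of all tested in each). Unadjusted p-values under 0.05 were found for 201 members (6.38%) for knockdown, 198 (6.29%) for TNF-α and 215 (6.83%) for the interaction, beside 4.96, 4.74 and 4.85% of all promoters tested. The median effect on patterning over members was 0.197, 0.689 and 1.41, and over all promoters 0.0569, 0.244 and 0.570. The adjusted p-values of members were 0.725 or above.

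By function, low-coverage promoters were found in every gene group examined. The groups were set with earlier results of these data known, and their shares follow from the score, beside 37.5% of all expressed coding promoters. Ubiquitin-conjugating enzymes (16 of 28, 57.1%) and Rab GTPases of membrane traffic (18 of 36, 50%) had the largest shares, and among them Ube2e3 and Rab1a had the highest fibroblast expression with 58.5 and 108 FPKM. Numbered zinc finger proteins had 95 of 222 (42.8%), proteasome subunits and translation initiation factors 15 of 36 each (41.7%), chaperones 22 of 55 (40%), tubulins and actins 5 of 13 (38.5%), splicing factors 16 of 43 (37.2%) and solute carriers 47 of 135 (34.8%).

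Respiratory chain and ATP synthase subunits (12 of 70, 17.1%) had the smallest share, followed by replication-dependent histones (1 of 5), mitochondrial ribosomal proteins (17 of 73, 23.3%), core transcription machinery (16 of 66, 24.2%), mitochondrial import (5 of 18, 27.8%) and cytosolic ribosomal proteins (16 of 50, 32%). The mean NDR ratio of the members of these groups over the single libraries was between 0.363 (mitochondrial import) and 0.637 (solute carriers), except for the single histone gene H2bc4 at 2.26. The median scaled patterning of group members, with each library divided by its mean occupancy, was highest for respiratory chain subunits (8.04) and mitochondrial ribosomal proteins (8.003), beside 4.97 over all low-coverage expressed promoters.

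Leading genes of these groups illustrate the range. Psmb2, a proteasome subunit with 133 FPKM in fibroblasts, had a mean occupancy of 0.154 in the NDR and 0.714 in the flank, and Sf3b1, a core splicing factor, 0.252 and 1.27, each depleted in 7 of 8 libraries. Rps26, a protein of the small ribosomal subunit, was depleted in 8 of 8 with 0.774 and 1.17, but in 10 of all 15 libraries. Eif4b, a translation initiation factor, had 0.362 and 1.11 and was depleted in 7 of 8. Depletion was weaker at Rab1a (1.09 and 1.17, 5 of 8 libraries), at Med13l of the Mediator kinase module (0.984 and 1.08, 4 of 8) and at Slc38a2, an amino acid transporter with 405 FPKM (0.849 and 1.03, 4 of 8).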

How the data were processed

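ChIP-MNase occupancies of 15 mouse libraries were analysed. Per the study's methods, the authors aligned reads with bowtie to mm9 (the submitters' processing notes name Bowtie2 and bedtools), kept paired-end fragments of 140 to 180 bp for pol-II or extended single-end reads for H3K4me1, retained those with 1 place among promoter regions, divided the count of each 10 bp bin by that of the 1 kb around it and smoothed it over 50 bp, which gives 200 bins from -1000 to 1000 bp. The deposited values are thus a signal without read counts. The study gives a range of reads per replicate but no total per library, so the depth behind each value is not known and was followed by the percentage of non-empty bins, which was 55.7 to 89.4% at the promoters described. The authors' promoter table gives a coverage score and expression from RNA-seq as FPKM, deposited per gene, with no error. Its 2 columns of log2 expression differences upon stimulation, calculated by the authors, were not used.

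Members and gene lists were chosen with earlier results of these data known. Of the promoters' RefSeq accessions, 96.3% were matched to a gene symbol, and sequences were read from the mm9 genome. The 8 single H3K4me1 libraries were the replicates. Library values were compared by two-sided exact sign-flip or label permutation tests and adjusted over 12 tests. Patterning of all promoters with any fragment in each of these libraries was fitted with limma 3.58.1 (R 4.3.3), with knockdown and stimulation as terms. Benjamini-Hochberg adjustment was at 0.05. The fit had first been tested on simulated data with shifts much larger than the residual spread. That simulation does not show whether smaller changes would be found. Other values were calculated with numpy 2.4.6, pandas 2.3.3 and scipy 1.17.1. The planned test of bin coverage between antibodies is not given, because the coverage score chose the members.

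Named members were those with the highest expression in both cell-types (8), the highest and lowest mean scaled patterning (5 each), the largest gain of non-empty bins in pol-II S5P (5), the highest fibroblast expression on either side of the score limit (3 each) or within a gene list (1 each), and any called by limma. Col1a2, Col3a1 and the sequences shown were chosen after values were seen. Some members that these rules name are not reported here. Alternatives were another NDR window or flank, a minimum of 50% non-empty bins, a score of at most 50, the median difference, square roots, library scaling, replicate number as a block and leaving out each library. Restricting both sets to promoters without another start within 1000 bp, and members to more than 0.5 FPKM in DCs, were chosen after seeing the data.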

Additional observations from a re-analysis of the deposited data

How the results depend on the processing

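Of 231 alternative values, 219 kept their direction and their side of the threshold or moved by less than the spread between libraries. The difference of low-coverage from high-coverage expressed promoters in NDR ratio reversed to -0.0181 as a median over promoters. The difference by another covered start lost its call at a score of at most 50 (-0.0205), above 0.5 FPKM in DCs (-0.108) and without neighbouring starts (-0.103), as did the X chromosome difference with at least 50% non-empty bins (-0.0414). Relative bin coverage in pol-II minus H3K4me1 (0.0673) was 0.00657 as mean occupancy, 0.196 against all high-coverage promoters, 0.169 at a score of at most 50 and 0.0986 without neighbouring starts. The causes were not tested.

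At an unadjusted p under 0.05, leaving out each library in turn lost no call. The p-value then reached 0.03125 (exact sign-flip permutation test) for the differences by another covered start and by X chromosome among members. These p-values were not adjusted over tests. The knockdown effect on the NDR ratio of members ran from -0.0562 to 0.00807 and changed sign without control non-stimulated replicate 1 (0.00807) or BAF-knockdown TNF-α replicate 1 (0.00628). The X chromosome difference of high-coverage expressed promoters ran from -0.0278 to 0.000565 and changed sign without BAF-knockdown non-stimulated replicate 2. The effect of TNF-α ran from -0.116 to -0.0518 and the difference between low-coverage and high-coverage expressed promoters from 0.0214 to 0.0256.

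Replicate differences in patterning, over promoters, did not go together between conditions, with 6 correlations of -0.00665 to 0.00884. Filled bins of members were nonetheless higher in replicate 1 than in replicate 2 of every condition, with 67.6 to 74.2% against 55.7 to 62.8%. What replicates of the same number have in common was not tested. Per the study's methods, the digest to sequence was chosen for each sample from a titration of MNase. The MNase amounts named for the libraries differ, are not explained in the labels and were not used here. With the replicate number as a block the NDR ratio differed from silent promoters by -0.357 and -0.421 in numbers 1 and 2 and from high-coverage ones by 0.0269 and 0.0195, and the block left 0 promoters called by limma, as did all other alternatives, with 165 to 256 members at an unadjusted p under 0.05. The files hold no counts, so that the depth behind a value is not known and levels of single promoters with few filled bins are imprecise, and 8 libraries cannot give a sign-flip p below 0.00781.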
